A study of Apis mellifera with 48 samples.

Results

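Active and resting honey bee workers of colonies 1 and 2 are described here, 20 bees in all. They were chosen by label alone, as the workers collected at 3 pm or at 9 am that came from colony 1 or colony 2, which gave 20 of the 48 bees of the series. Each colony contributed 5 active bees collected at 3 pm as they got ready to forage and 5 inactive bees collected at 9 am. The mushroom bodies were dissected from each brain, and polyadenylated RNA of each bee was sequenced as 1 directional library. The colonies, of the species Apis mellifera, were each headed by a naturally mated queen, and the queens were unrelated to each other. No treatment was given, so collection time, activity and whatever else differs between morning and afternoon cannot be told apart. Active bees had been picked out by watching and marking them, and neither the age nor the foraging history of the bees is given in the labels. The other 28 bees of the series, 4 workers of colony 3 and 24 drones, serve below only as bees outside the fit.

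Mushroom bodies are paired centres of the insect brain in which Kenyon cells receive olfactory and, in bees, visual input, and they are known for their part in associative learning and memory. A worker that turns to foraging has to learn the place, scent and time of day of flowers, and its mushroom bodies are known to grow with that experience. Genes are given by the identifiers of the deposited files, because 0 of the 15314 identifiers could be matched to a name in the table at hand. For this reason no gene can be given a function, and markers of Kenyon cells or of neighbouring tissues could not be checked. In dissected tissue, more cells of a type and more RNA per cell cannot be told apart.

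The libraries held between 6.85 and 27.1 M reads counted in genes (M for mega), with 17.7 ± 7.47 M (SD, n = 10) in active and 14.7 ± 4.77 M in inactive bees. No test of 6 library measures passed (depth, genes detected, the shares of reads outside genes, of ambiguous reads and of reads with several alignments, and the share of the 10 most abundant genes), with adjusted p from 0.611 to 0.958 between active and inactive bees (exact two-sided permutation test within colonies). The share of reads outside genes was 28.1% ± 1.11 in active and 27.2% ± 1.78 in inactive bees. Collection time accounted for 0.193% of the first principal component of log2 CPM (23.9% of the variance) and for 26.0% of the second (12.8% of the variance). Both components also followed library measures. The share of reads outside genes correlated with them at r = -0.63 and 0.58, and that of the 10 most abundant genes at 0.49 with each. For depth r was 0.36 and -0.21. The part of these measures in the components was not tested. Colony accounted for 50.9% of the third component, which held 11.3% of the variance. The 7 sequencing pools of the labels were spread over both times, except that pool 7 held 1 library, that of active worker 4. Bees are numbered as in the labels, 1 to 5 for colony 1 and 6 to 10 for colony 2 within each time.

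The first comparison, of all 10 active with all 10 inactive workers and with colony as a covariate, asks which genes differ between workers about to forage and resting workers in both colonies together. Of 11114 genes tested, 54 were higher (0.486%) and 59 lower (0.531%) in active workers, 113 in all or 1.02% (edgeR quasi-likelihood test, adjusted p below 0.05). The changes were modest, with a median of 1.54-fold. The decreases were the larger ones, with a median log2 fold change of -0.75 against 0.56 for the increases, and 18 genes fell at least 2-fold while 3 rose at least 2-fold. The genes that rose were well expressed, with a median of 5.94 log2 CPM (CPM, reads scaled to a common library size on the TMM scale), and those that fell lay at 4.55, where all genes tested had a median of 4.06. With the genes tested split into 3 equal classes by mean level, calls made up 0.459% of the lowest, 1.03% of the middle and 1.57% of the highest class.

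GB48199 was the rising gene with the lowest p. Its level ran from 325 through a median of 371 to 445 CPM in active workers, and from 199 through 254 to 312 CPM in inactive workers. The groups did not overlap, and all 10 active bees lay above the highest inactive one. The log2 fold change was 0.57 ± 0.08 (SE, edgeR adjusted p = 0.0029), with 0.54 ± 0.12 in colony 1 and 0.60 ± 0.12 in colony 2, a difference of 0.06 ± 0.17. GB51506 was next, with 37.9, 50.4 and 67.5 CPM as lowest, median and highest value in active workers against 26.2, 33.8 and 40.1 CPM in inactive workers. Active worker 1 was the only active bee within the inactive range. The log2 fold change of GB51506 was 0.60 ± 0.09 (edgeR adjusted p = 0.0042).

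GB52025 was the falling gene with the lowest p. It ran from 79.3 through a median of 161 to 198 CPM in active workers and from 234 through 282 to 411 CPM in inactive workers. Again the groups did not overlap, and active worker 10 was the lowest bee by a wide margin. The log2 fold change was -0.95 ± 0.14 (edgeR adjusted p = 0.0029). GB41471 fell by about as much, from 275, 438 and 589 CPM as lowest, median and highest value in inactive workers to 140, 210.0 and 319.5 CPM in active workers. Here 9 of 10 active bees lay below all inactive bees, and active worker 4, at the top of the active range, was the exception. The log2 fold change of GB41471 was -1.05 ± 0.15 (edgeR adjusted p = 0.0029). These 4 genes changed in the same direction in each of the 6 pools that held bees of both times, with pool-wise log2 differences from 0.24 to 0.85 for GB48199, from 0.22 to 1.04 for GB51506, from -1.42 to -0.71 for GB52025 and from -1.25 to -0.58 for GB41471. They also passed in all 20 fits that left out 1 bee and in every other setting tried, pool terms included (edgeR adjusted p from 0.0176 to 0.0394 with pool terms). All of these fits reuse bees that chose the genes.

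**Figure D1:**
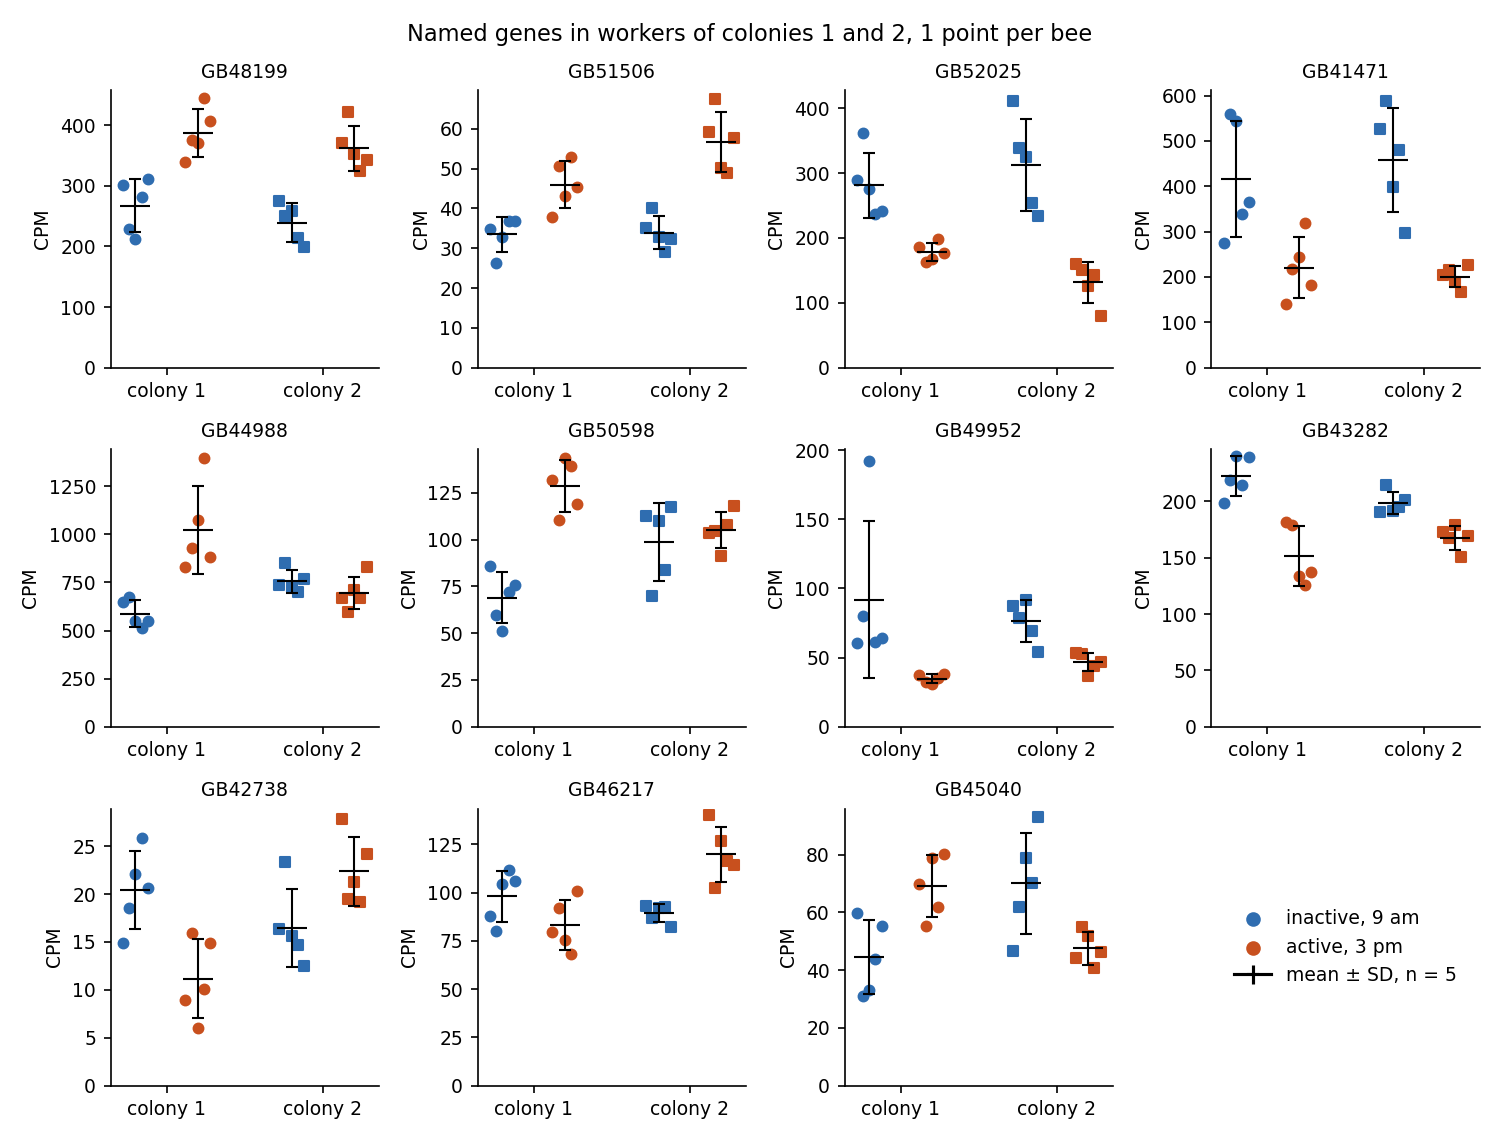
Levels of the 11 named genes in CPM (linear axes from 0), with 1 point per bee, blue for inactive bees at 9 am and orange for active bees at 3 pm, and with circles for colony 1 and squares for colony 2; bars give the mean ± SD of 5 bees. The upper row holds the genes of the comparison over both colonies (active workers at 325 to 445 CPM of GB48199, inactive workers at 199 to 312 CPM), the middle row those of colony 1, and the lower row 3 genes named for the difference between the colonies, none of which passed.

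Most of the 113 genes overlapped between active and inactive bees. A median of 7 active bees lay above all inactive bees among the genes that rose, and a median of 6 below all inactive bees among those that fell. Over all genes tested, 6 had every active bee above every inactive one (0.054%) and 4 had every active bee below (0.036%). Of these, 5 and 4 were among the genes called. Within the 6 pools with bees of both times, 41 of the 54 genes that rose and 51 of the 59 that fell kept their direction in every pool, although each pool's difference rests on 1 or 2 bees per time, which in part came from different colonies. These bees are the ones that chose the genes, so the counts describe evenness only. The share of all genes tested that kept their direction in every pool is not given here.

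A few bees held most of the extreme values. Inactive worker 3 of colony 1 was the highest of the 20 bees in 35 of the 59 genes that fell and the lowest in 32 of the 54 genes that rose. Over all genes tested this bee was the highest in 10.6% and the lowest in 9.41%. Among the 18 genes that fell at least 2-fold it was the highest bee in 15. Active worker 4 was the highest bee in 24 of the 54 genes that rose, and in 12.0% of all genes tested. Without inactive worker 3, 14 of these 18 genes still had a fold change of at least 2, and the median log2 fold changes of the genes first called were 0.52 and -0.70.

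The number of calls moved with single bees far more than the fold changes did. It fell from 113 to 21 without active worker 3, and to 39, 66, 26, 51, 60, 50 and 41 without active worker 2, 4, 5, 6, 8, 9 or 10. It was 31, 32 and 25 without inactive worker 2, 3 or 9. Without inactive worker 10 it rose to 309, of which 189 were lower, and all 113 genes were among them. Inactive worker 10 had the highest share of reads outside genes, 31.2%, and the lowest share of ambiguous reads, 0.763%, and the part of these in the count was not tested. With pool terms 12 genes passed, of which 10 were among the 113, and with the replicate number as a block 74 passed. Active worker 4 is alone in its pool, so in the fit with pool terms it adds nothing to the fold changes. In each of the 20 fits without 1 bee all 113 genes kept their sign, and the median log2 fold change of the 54 ran from 0.51 to 0.59 and that of the 59 from -0.82 to -0.70. The fits reuse the bees that chose the genes, which favours a kept sign, so these values describe evenness only.

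**Figure D2:**
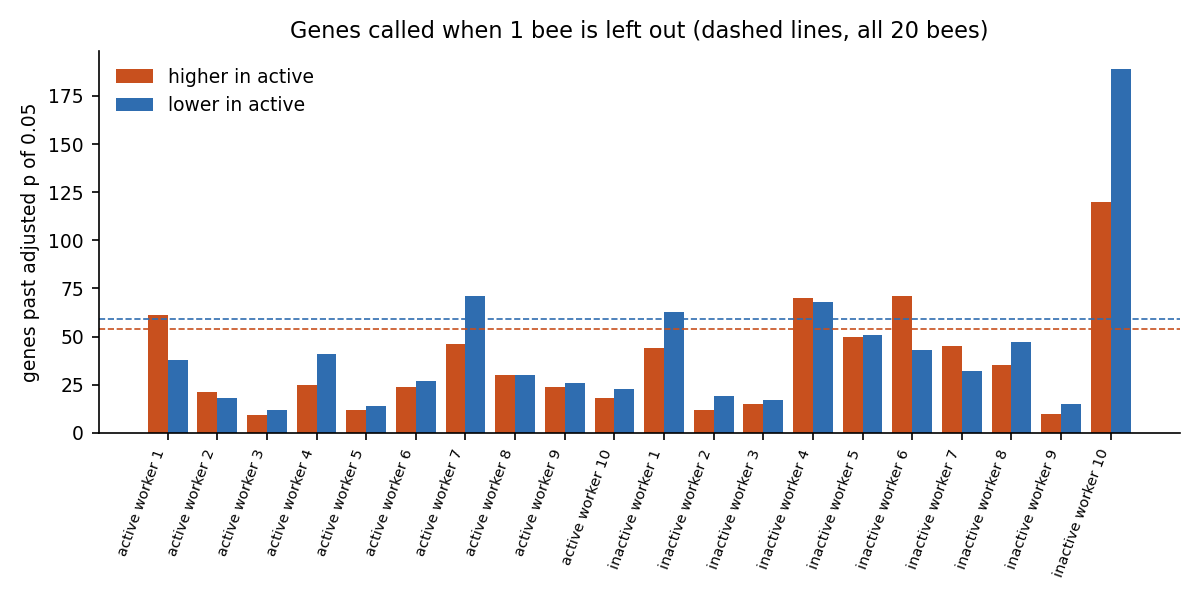
Number of genes past an edgeR adjusted p of 0.05 when 1 of the 20 bees is left out (x axis), orange for genes higher and blue for genes lower in active workers, with dashed lines at the 54 and 59 genes of the full comparison. The totals run from 21 without active worker 3 to 309 without inactive worker 10.

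The response of each colony, 5 active against 5 inactive bees, was then taken from 1 fit over all 20 libraries, in which both colonies share the estimate of the spread. Fits of the 10 libraries of 1 colony called 0 genes in either colony (lowest edgeR adjusted p 0.131 in colony 1 and 0.0557 in colony 2). In the shared fit, 4 genes of colony 1 were higher and 2 lower in active workers, 6 of 11114 or 0.054% (0.036% higher and 0.018% lower). In colony 2, 0 were higher and 1 was lower, 0.009% of the genes tested. At an unadjusted p below 0.05 there were 1464 genes in colony 1 and 596 in colony 2. No gene passed in both colonies with edgeR, limma-voom or any other setting but DESeq2, which called 184 genes in colony 1, 21 in colony 2 and 6 in both with the same direction. Non-overlapping groups of 5 were also more frequent in colony 1, where 199 genes had all active bees above the inactive ones (1.79%) and 171 all below (1.54%), against 92 (0.828%) and 58 (0.522%) in colony 2. In both colonies at once, 10 of the 11114 genes tested had all active bees of each colony above its inactive bees. In 6 they lay all below, and 0 had opposite directions. The share that would separate without any difference between the times was not computed. The median SD of log2 CPM among 5 bees was 0.297 in active and 0.311 in inactive workers of colony 1, and 0.288 and 0.387 in those of colony 2, so the inactive bees of colony 2 were the most uneven. Their part in the lower count of colony 2 was not tested. Of the 6 genes of colony 1, the 2 that fell were among the 113 genes of both colonies together and the 4 that rose were not. Of the 113 genes, 2 passed in colony 1 and 1 in colony 2, all of them falling genes.

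In colony 1, GB44988 was 830, 931, 1074, 1398 and 881 CPM in active workers 1 to 5, against 650, 677, 550, 515 and 550 CPM in inactive workers 1 to 5. All active bees lay above all inactive ones, with active worker 4 at the top. The log2 fold change was 0.80 ± 0.13 (SE, edgeR adjusted p = 0.0254). In colony 2 the same gene was 670, 598, 710, 669 and 829.3 CPM in active workers 6 to 10 and 736, 850, 724, 699 and 768 CPM in inactive workers 6 to 10, with broad overlap and a log2 fold change of -0.12 ± 0.13 (edgeR adjusted p = 0.995). GB50598 showed the same kind of split. It was 132, 110, 143, 139 and 119 CPM in active and 86.0, 59.9, 50.9, 71.7 and 75.8 CPM in inactive workers of colony 1, without overlap (log2 fold change 0.90 ± 0.15, edgeR adjusted p = 0.0254). In colony 2 it was 104, 105, 91.1, 108 and 118 CPM in active and 113, 69.9, 110, 83.8 and 117 CPM in inactive workers. Active worker 10 was the highest of these bees and inactive workers 7 and 9 the lowest, and the others overlapped, at a log2 fold change of 0.09 ± 0.15 (edgeR adjusted p = 0.995).

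The falling genes of colony 1 had the same sign in colony 2 but smaller fold changes there, and neither passed. GB49952 was 37.7, 32.2, 30.6, 34.9 and 38.3 CPM in active and 60.9, 79.9, 192, 61.4 and 64.2 CPM in inactive workers of colony 1 (log2 fold change -1.40 ± 0.25, edgeR adjusted p = 0.0489). Inactive worker 3 stood far above the other bees, and without it the log2 fold change was -0.94. In colony 2 active workers held 37.02 to 53.5 CPM of GB49952 and inactive workers 53.8 to 91.7 CPM, and no active bee of either colony reached the lowest inactive bee. The log2 fold change of GB49952 in colony 2 was -0.70 ± 0.25 (edgeR adjusted p = 0.730), and its difference between the colonies was 0.69 ± 0.35. GB43282 was 182, 179, 134, 126 and 137 CPM in active and 199, 219, 240, 214 and 240 CPM in inactive workers of colony 1 (log2 fold change -0.55 ± 0.10, edgeR adjusted p = 0.0498). In colony 2 it held 151 to 179 CPM in active and 191 to 215 CPM in inactive workers, a log2 fold change of -0.24 ± 0.10 (edgeR adjusted p = 0.862), with a difference between the colonies of 0.31 ± 0.15. It did not overlap in either colony, and in both colonies together GB49952 and GB43282 also passed (log2 fold changes -1.05 ± 0.19 and -0.40 ± 0.08, edgeR adjusted p = 0.0162 and 0.0252).

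In colony 2 the 1 gene called was GB52025, already described for both colonies. It was 159, 150, 125, 143 and 79.3 CPM in active workers 6 to 10 and 411, 338, 324, 253 and 234 CPM in inactive workers 6 to 10 (log2 fold change -1.25 ± 0.17, edgeR adjusted p = 0.00427). In colony 1 the active workers held 187, 164, 167, 198 and 176 CPM and the inactive workers 289, 362, 275, 237 and 242 CPM of GB52025, a log2 fold change of -0.66 ± 0.17 (edgeR adjusted p = 0.115). The bees of each colony separated without overlap in this gene. The other genes with the lowest p in colony 2 did not pass there: GB51506 at a log2 fold change of 0.74 ± 0.13 (edgeR adjusted p = 0.0538), GB48199 at 0.60 ± 0.12 (0.0956) and GB41471 at -1.19 ± 0.22 (0.0632).

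The calls of single colonies were fragile. All 4 named genes of colony 1 missed the threshold with pool terms (edgeR adjusted p from 0.890 to 0.980), with the replicate number as a block (0.0642 to 0.0915) and without active worker 3 or 4, where the colony 1 count was 0. Their direction held in each of these fits. The count of colony 1 was 1 without inactive worker 2 or 3, 2 without any 1 of active workers 6 to 9 or inactive workers 6 to 9, 3 without active worker 10, 11 without inactive worker 1 and 12 without inactive worker 10. That of colony 2 was 8 without active worker 1, 5 without active worker 4 or inactive worker 3, 4 without inactive worker 1 or 10, and 2 without active worker 9 or inactive worker 2 or 7. GB52025 of colony 2 passed in all 20 fits that left out a bee but not with pool terms (edgeR adjusted p = 0.464) or in a fit of the 10 libraries of colony 2 alone (0.0932).

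The test of the difference between the colonies asks whether the 2 colonies responded differently. It found 0 of 11114 genes (0%) with edgeR, where 324 genes had an unadjusted p below 0.05 and the lowest adjusted p was 0.604. Limma-voom also found 0, and DESeq2 found 1, GB44988. With edgeR the response of colony 2 minus that of colony 1 was -0.92 ± 0.18 for GB44988 (SE, edgeR adjusted p = 0.604), and with DESeq2 it was -0.93 (adjusted p = 0.0145). The other 3 genes named here did not pass and are given by value. GB45040 was 55.2 to 80.2 CPM in active and 31.1 to 59.8 CPM in inactive workers of colony 1, against 40.8 to 55.1 and 46.6 to 92.9 CPM in colony 2 (difference -1.19 ± 0.27, edgeR adjusted p = 0.758). GB42738 was 6.06 to 15.9 CPM in active and 14.9 to 25.8 CPM in inactive workers of colony 1, against 19.2 to 27.8 and 12.4 to 23.3 CPM in colony 2 (difference 1.30 ± 0.32, edgeR adjusted p = 0.9997). GB46217 was 68.3 to 101 and 80.3 to 112 CPM in colony 1 and 102 to 140 and 82.2 to 93.2 CPM in colony 2, in the same order (difference 0.66 ± 0.17). In colony 2 the active bees of GB46217 lay above all inactive ones, and in colony 1 they overlapped. With edgeR and limma-voom, an effect that passed in colony 1 and not in colony 2 is therefore not shown to differ between them. This includes GB50598 (difference -0.81 ± 0.21, edgeR adjusted p = 0.9997). With DESeq2 GB44988 is the exception.

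Across genes, which are not independent replicates, the responses of the 2 colonies, each taken from its own 10 libraries, were correlated over 10434 genes at r = 0.33 (Pearson) and rho = 0.42 (Spearman), and 66.6% of the genes had the same sign. The median size of the log2 fold change was 0.19 in colony 1 and 0.14 in colony 2. All 113 genes called in both colonies together had the same sign in each colony, as a fit over both colonies favours. Of the 54 that rose 37 had the larger fold change in colony 1, as did 42 of the 59 that fell. The medians for the 54 were 0.56 in colony 1 and 0.49 in colony 2, and those for the 59 were -0.85 and -0.68.

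**Figure D3:**
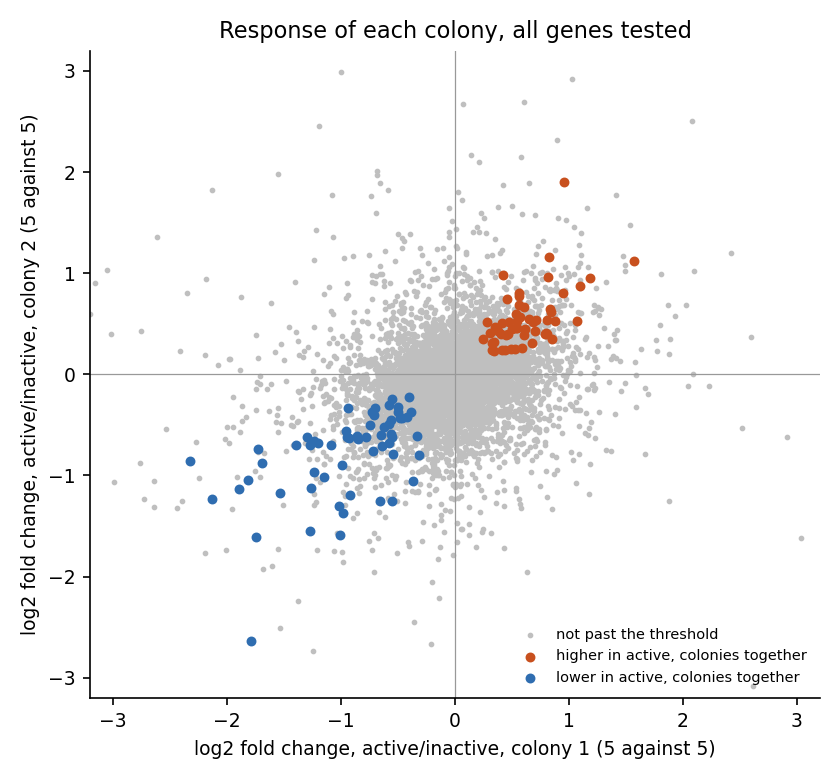
Log2 fold change of active over inactive workers in colony 1 (x axis) and colony 2 (y axis), 1 point per gene, with 22 of 11114 genes outside the axes. The 54 genes that rose (orange) and the 59 that fell (blue) in both colonies together all lie in the quadrants where the colonies share a sign.

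The fits of 1 colony's own 10 libraries called 0 genes with edgeR (before adjustment, 1508 genes in colony 1 and 481 in colony 2 had a p below 0.05). Other tools were not run on 1 colony alone. To read 1 colony in the other, the 100 genes with the lowest p of each colony were therefore taken, a choice made after the counts were known. For colony 1 these were 44 rising and 56 falling genes. Of them 37 of 44 and 54 of 55 with a value had the same sign in colony 2, where the other genes did in 61.6% and 71.4%. Of the 44 rising and 56 falling genes of colony 2, 39 and 50 had the same sign in colony 1, against 69.6% and 63.7% of the other genes. In the workers of colony 3, 40 rising and 23 falling genes of the colony 1 list had the same sign, against 54.5% and 61.0% of the other genes. For the colony 2 list these were 34 and 28, against 54.4% and 59.0%.

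For each bee the mean log2 CPM of the rising genes minus that of the falling genes gives a score, read in the colony that did not choose the genes. With the colony 1 genes the active workers 6 to 10 of colony 2 scored -0.06, -0.11, 0.03, 0.35 and 0.27, and the inactive workers 6 to 10 scored -0.43, -0.63, -0.82, -0.79 and -0.02. Inactive worker 10 thus lay among the active bees, and the other 4 inactive bees lay below them all. With the colony 2 genes the active workers 1 to 5 of colony 1 scored 0.998, 0.989, 1.07, 0.70 and 1.13, and the inactive workers 1 to 5 scored 0.60, -0.50, -0.93, 0.53 and 0.38. The active bees all lay above the inactive bees, and the inactive bees split into 3 near the active ones and inactive workers 2 and 3 far below.

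**Figure D4:**
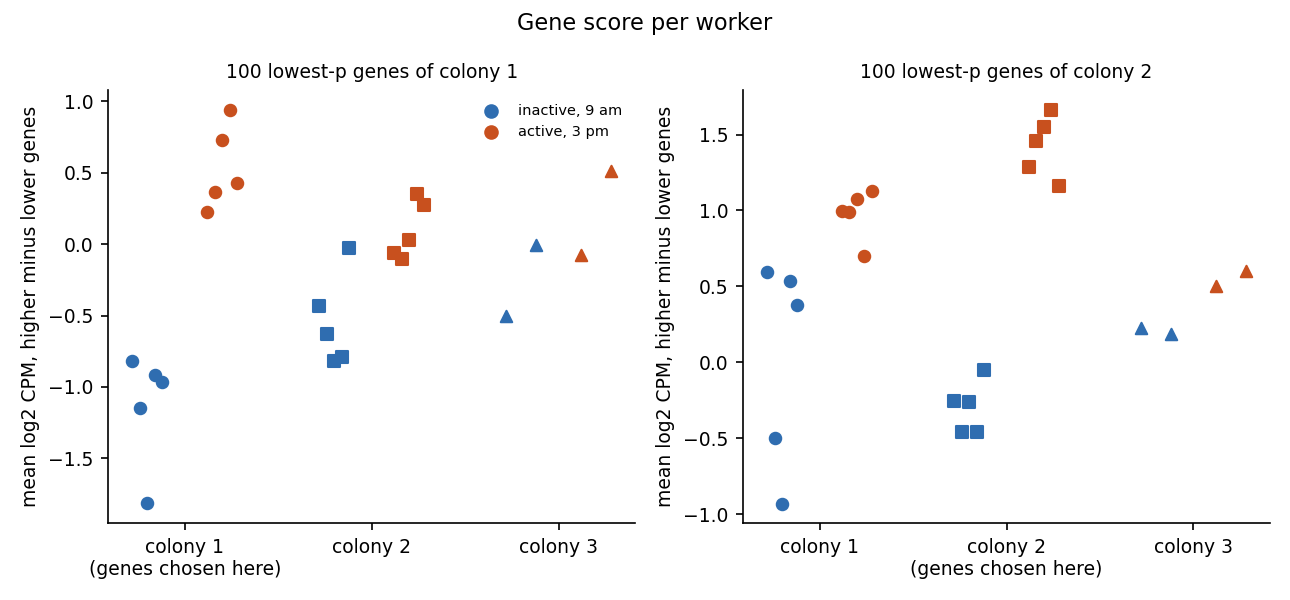
Score of each worker, the mean log2 CPM of the rising minus the falling genes among the 100 with the lowest p in colony 1 (left) or colony 2 (right), by colony and time. Read with the genes of the other colony, the active bees scored from -0.11 to 0.35 in colony 2 and from 0.70 to 1.13 in colony 1. Among the inactive bees of colonies 1 and 2, only inactive worker 10 (-0.02) lay inside the active range of its colony. In colony 3, the colony 1 genes put an inactive bee (-0.01) between the active bees (-0.08 and 0.51). With the colony 2 genes the active bees of colony 3 (0.50 and 0.60) lay above the inactive ones (0.23 and 0.19).

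The 4 workers of colony 3, 2 active and 2 inactive, took no part in the fit. Of the 54 genes that rose in colonies 1 and 2, 50 (92.6%) were also higher in the active bees of colony 3, against 55.4% of the other genes with a positive fold change, with a median log2 difference of 0.42. Of the 59 genes that fell, 29 (49.2%) were lower there, against 61.7% of the other genes with a negative fold change, with a median of 0.01. Over the fits without 1 bee the share of falling genes that were lower in colony 3 ran from 43.5% to 75%, the highest being 9 of the 12 genes called without active worker 3. The mean level of the 54 was 5.98 and 5.83 log2 CPM in the 2 active bees and 5.42 and 5.51 in the 2 inactive bees. That of the 59 was 4.84 and 4.57 in active and 4.85 and 4.79 in inactive bees. The inactive bees of colony 3 therefore lay at the low end of the 4.76 to 5.84 log2 CPM of the inactive bees of colonies 1 and 2, whose active bees held 4.13 to 4.56. Both active bees of colony 3 lay above that active range, and 1 of them, at 4.84, lay within the inactive range.

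Of the 8 genes named for both colonies or for colony 1, 4 separated in colony 3 in the direction for which they were named. The other 4 did not separate. The share of all genes tested that separate in colony 3 was not computed. With 2 bees against 2 separation is easily reached, so these counts describe single genes only. GB48199 was 374 and 294 CPM in active and 257 and 259 CPM in inactive workers of colony 3. GB52025 was 156 and 159 CPM in active and 233 and 239 CPM in inactive workers, and GB49952 was 37.4 and 44.3 against 75.3 and 69.9 CPM, so these 2 falling genes were lower in both active bees of colony 3 too. GB44988 was 1034 and 1453 CPM in active and 721 and 851 CPM in inactive workers, again without overlap. Among the genes that did not separate, GB41471 was 339 and 256 CPM in active and 214 and 320 CPM in inactive workers, and GB51506 was 58.7 and 38.02 against 47.6 and 29.8 CPM. GB50598, a rising gene of colony 1, was 82.8 and 113 CPM in active and 96.6 and 124 CPM in inactive workers, a log2 difference of -0.18. GB43282, a falling gene, was 201 and 164 against 183 and 173 CPM, a log2 difference of 0.03. No test was run on the 4 bees of colony 3.

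In drones, 51 of the 54 genes that rose and 56 of the 59 that fell in workers had the same sign between 12 active and 12 inactive bees, with colony as a covariate, against 55.9% and 58.0% of the other genes, at median log2 differences of 0.25 and -0.38. The counts were 44 of 54 and 46 of 59 within the drones of colony 1 (2 active and 5 inactive), 44 and 42 within those of colony 2 (2 active and 1 inactive), and 50 and 54 within those of colony 3 (8 active and 6 inactive). The share of the other genes was not computed within single drone colonies.

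**Figure D5:**
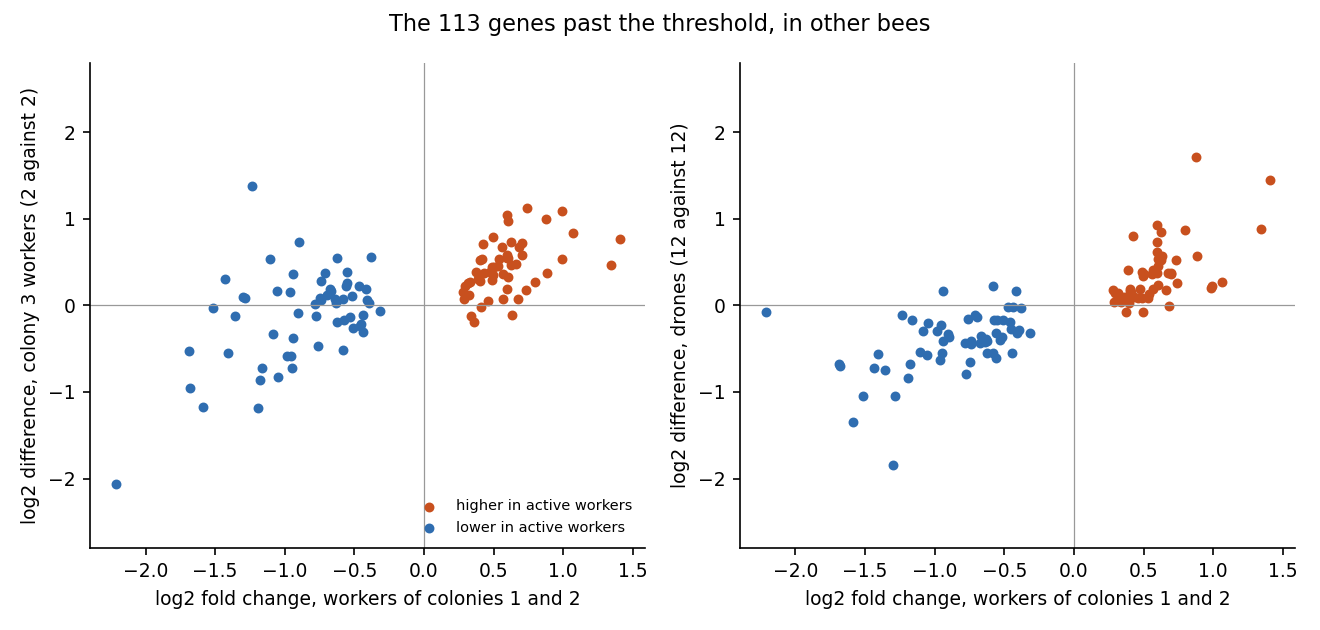
The 113 genes called in workers of colonies 1 and 2, with their log2 fold change there (x axis) against the log2 difference between active and inactive workers of colony 3 (left) and between active and inactive drones (right); orange marks genes that rose and blue genes that fell. The 59 falling genes are spread around 0 in colony 3 (median 0.01) and lie mostly below 0 in drones (median -0.38).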

How the data were processed

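The authors deposited unnormalised counts of reads for each gene identifier, in 1 table per bee. The submitters' processing notes name HTSeq 0.5.4, TopHat2 2.0.10, Trimmomatic 0.30, edgeR 3.4.2, CASAVA 1.8.2 and SAMtools, without saying what each did. The genome build is not given in the sources used here. How strand and overlapping genes were treated in counting is not given in the sources used here, so overlapping or near-identical genes are uncertain. The 5 summary rows of each file (reads outside genes, ambiguous reads and the like, in libraries used here 25.3% to 31.2% outside genes) stayed out of library sizes and tests.

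The 20 worker libraries of colonies 1 and 2 were fitted with edgeR 4.0.16 in R 4.3.3 after filterByExpr (minimum count 10) by colony and time, which left 11114 genes, with TMM scaling. Time and colony were terms of the pooled fit, and 4 means (colony by time) gave each colony's response and their difference. Tests were two-sided quasi-likelihood tests with Benjamini-Hochberg adjustment over all genes tested and a threshold of 0.05. A standard error is the size of the log2 fold change over the square root of F. Values of colony 3 workers and of drones, and the bee scores, are on a TMM scale of all 48 libraries, with log2 CPM at a prior count of 2. Differences over all drones are coefficients of a linear model with colony, and those within single drone colonies are differences of means. Named genes are, per comparison, the 2 with the lowest p in each direction at a mean log2 CPM of at least 1, past the threshold where that many passed. The gene lists and cell type markers drawn up for named genes could not be matched to any identifier. The comparisons, lists and rules were chosen with earlier results of these data known. The bees are separate animals, but bees of a colony share a hive and a queen. The scripts were tested on simulated counts. DESeq2 1.42.0 and limma 3.58.1 were alternatives.

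The groups share replicate numbers, and the labels do not say that a number marks a common batch or day. The correlation of same-numbered deviations is given with the alternatives.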

Additional observations from a re-analysis of the deposited data

Results flagged for a closer look

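Of 68 groups of 5 or 10 values examined for a bee far from the rest, 2 were marked. The rule marks about 1 in 20 independent groups by chance. These groups share bees, and many hold genes chosen for a low p, so that rate does not apply to them. Inactive worker 3 stood apart from the other 4 inactive workers of colony 1 in GB49952, at 192 CPM where they had at most 79.9 CPM. Inactive worker 10 stood apart among the 10 inactive workers in its share of ambiguous reads, 0.763%.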

How the results depend on the processing

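The directions of all 16 named results, and of the 113 genes wherever they were tested, held in every alternative run. Each run reused bees that had chosen the genes, which favours a kept direction. The pooled count of 113 was 89 with size factors, 98 with limma-voom, 84 after thinning to equal depth, 120 without colony as a covariate and 159 with all 24 workers. It was 50 without a filter on low counts, 363 with DESeq2, 12 with pool terms, 74 with the replicate block, 187 with all 48 libraries and 21 to 309 when 1 bee was left out. Colony 1 had 184 genes with DESeq2, 2 with limma-voom or thinning, 0 with pool terms, the replicate block or its own 10 libraries alone, 25 with all 48 libraries and 0 to 12 without 1 bee. Colony 2 had 21 with DESeq2, 2 with limma-voom, 0 with pool terms or its own libraries alone and 1 to 8 without 1 bee. The difference between the colonies had 1 gene with DESeq2 and 0 to 0 without 1 bee, and both colonies shared 6 genes with DESeq2. The share of pooled calls with the same sign in colony 3 was 69.9%, 58.3% with pool terms and 60.2% to 85.7% without 1 bee. The share of rising genes among pooled calls was 47.8%, and ran from 25% with pool terms, 32% without a filter and 38.2% with size factors to 66.7% with all 24 workers. Whether the replicate numbers pair the bees was not tested. Of 10 same-numbered pairs, 5 had a correlation of deviations over 0.1 (from -0.14 to 0.47). Among the inactive bees of their own colony only, 3 of 10 active bees matched their own number best. The causes of these changes were not tested, and the smallest library, 6.85 M reads, limits weakly expressed genes.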
